A study of Caenorhabditis elegans with 12 samples.

Results

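The U13A strain of the nematode Caenorhabditis elegans was compared with its own control strain, across all genes, in 6 of the 12 RNA-seq libraries of the study. These were the 3 libraries of strain VT3878 and the 3 of strain DG3913, lettered A to C in each. The control DG3913 carried lin-41(tn1541). The mutant VT3878 carried lin-41(tn1541ma480) together with let-7(ma432), the U13A substitution at position 13 of the let-7 microRNA. Both groups therefore shared the tn1541 allele, known as one that tags LIN-41 with green fluorescent protein. The mutant had a further lin-41 change, ma480, of which the label says only that lin-41 downstream is excluded. No group carried let-7(ma432) alone, so effects of the substitution and of ma480 cannot be told apart. All libraries were of whole animals at mid L4, the last larval stage, fed on E. coli HB101, grown at 20 °C and collected 45 h after feeding. The other 6 libraries were of a U18A let-7 mutant (VT3797) and its control (VT1367), both with the transgene maIs105. They were used only in fits together with the U13A libraries. These fits gave a test of the difference between the mutants, the U18A changes set beside it, and an alternative fit of the U13A comparison. Nothing in the labels says that the lettered libraries came from separate cultures, so p-values measure the spread between these samples, which may be technical.

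The microRNA let-7 acts in the heterochronic pathway, which sets the order of larval fates. It represses lin-41, which encodes a RNA-binding protein, and the fall of LIN-41 late in larval life lets the epidermis adopt its adult programme. The epidermis also makes the cuticle at each moult: it first secretes a temporary precuticle matrix of zona pellucida, leucine-rich repeat and lipocalin-related proteins, and then a cuticle built mainly of collagens.

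Control C was unlike the other 5 U13A libraries, and results are given with and without it. Total counts ran from 16659340 to 21414080 per library, of which 3 noncoding RNA entries took 65.6% to 76.8%, leaving 4260691 to 7266422 counts. In control C these entries took the highest share, 9.63% of counts fell in protein-coding genes against 18.0% to 20.3% in the others, and the TMM scaling factor was 0.577 against 1.02 to 1.22. Chi-square per degree of freedom between replicates was 50.6 for controls A and C and 71.3 for B and C, against 9.77 for A and B and 5.55 to 10.6 for pairs of mutants. Transcripts encoded by mitochondrial DNA summed to 28830 CPM in control C and to 11360 to 14110 CPM in the others. CPM here are counts per 1000000 of the TMM-scaled library total, noncoding entries included. A level of 5 CPM corresponds to 53 counts in control C and to 87 to 130 in the others.

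Counts do not read the edits themselves. These were not small RNA libraries, and let-7 had 25, 13 and 85 counts in controls A, B and C and 8, 42 and 49 in mutants A, B and C, with overlapping groups. Its log2 fold change, mutant over control, was -0.58 (SE 1.26, edgeR adjusted p 0.894), and without control C the sign turned, to 1.07 (adjusted p 0.777). lin-41 stood at 29.7, 24.7 and 25.1 CPM in the controls and 32.6, 28.8 and 29.8 CPM in the mutants. These groups overlapped as well, and the log2 fold change of 0.20 (SE 0.12) did not pass (edgeR adjusted p 0.563).

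Of 12044 genes tested, 187 (1.55%) passed an adjusted p of 0.05 in edgeR's quasi-likelihood test. There were 88 higher (0.731%) and 99 lower (0.822%) in the mutant, and 1514 genes (12.6%) had an unadjusted p under 0.05. Without control C 352 of 12521 passed (2.81%), 166 higher (1.33%) and 186 lower (1.49%). Of the 187 genes, 178 were also called without control C. All 187 kept their sign, but their groups did not overlap, so leaving out 1 library could hardly turn it. The 9 that were not called were dpy-5, dpy-13, col-14, col-65, col-104, rol-1, R12E2.7, F10D11.6 and ZK105.3, so 5 of them were on the list of cuticle collagens used here. More of the 187 calls were lost without each other library than without control C. In these fits 61 genes passed without control A, 37 without mutant A and 38 without mutant B. There were 243 without control B and 162 without mutant C. Leaving out control C mainly added calls: 174 genes passed that the 6 libraries did not call. Among these 174, 9 were not tested with 6 libraries. There were 31 genes that passed in all 6 fits that each left out 1 library. Calls among the named genes were lost most often without control A, mutant A or mutant B. For every one of the 187 genes the 3 mutant values lay entirely above or below the 3 control values. Over all genes tested they did so for 19.1%, above for 9.8% and below for 9.26%.

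**Figure D1:**
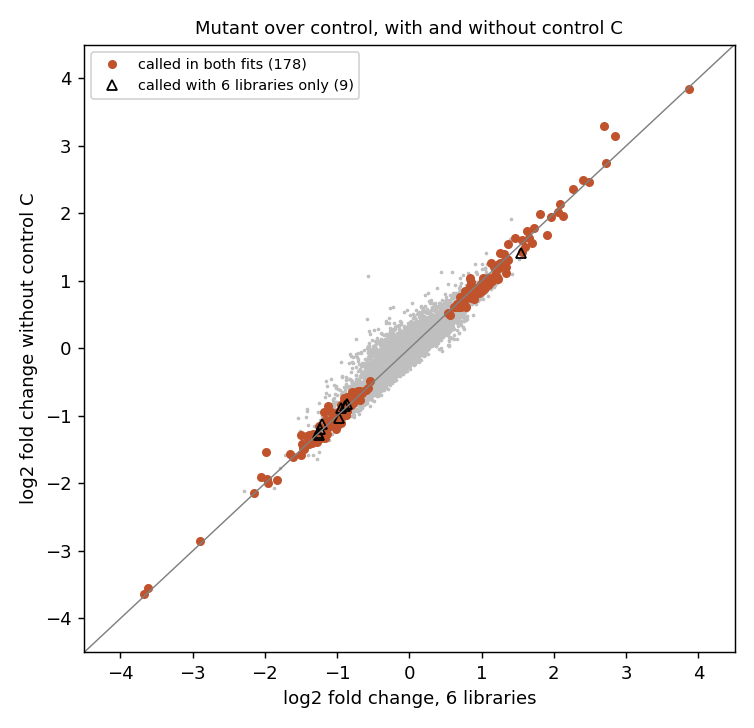
Log2 fold change, mutant over control, with all 6 libraries (horizontal axis) and without control C (vertical axis), 1 point per gene. Orange points are the 178 genes called in both fits. Triangles are the 9 called with 6 libraries but not without control C, and grey points the other genes. Called genes lie near the diagonal, on the same side of 0 in both fits. Their groups did not overlap, so the side was nearly fixed beforehand.

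Genes on the cuticle collagen list, which was drawn up by gene symbol, made up 36 of the called genes. Of 135 tested, 8 were higher and 28 lower (10 and 32 of 136 without control C). Leaving out 1 library gave 6 (without mutant A), 7 (without mutant B) or 11 (without control A) called collagens, against 33 to 42 in the other 3 fits. The other functions are described below. Each list's calls are to be read against the 1.55% called over all genes, or 2.81% without control C. A single call in a list describes the gene rather than the list. Outside the collagen and heterochronic lists 150 called genes remained, 79 higher and 71 lower. In whole animals, fewer cells of a type and less RNA per cell cannot be told apart.

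Several precuticle matrix genes rose in the mutant. Of 10 tested, out of 11 on the list, 5 rose and 0 fell, and the list's median log2 fold change was 1.18 against -0.01 over all genes tested. DESeq2 also called 5, and without control C 6 rose, with a median of 1.17. Leaving out each other library in turn gave 4 or 5, the 4 without mutant B. fbn-1, which encodes a fibrillin-related zona pellucida protein of the epidermal matrix, stood at 2.17, 1.92 and 1.79 CPM in controls A, B and C and at 7.55, 7.62 and 9.59 CPM in mutants A, B and C. Every mutant was thus well above every control, control C included, and the log2 fold change was 2.05 (SE 0.18, edgeR adjusted p 7.00e-05). fbn-1 lies on chromosome III at 7625386 to 7641078 (WBcel235) and overlaps upp-1 on the opposite strand, which changed by 0.23 (adjusted p 0.617).

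noah-1 and noah-2 encode related transmembrane zona pellucida proteins. noah-1 (chromosome I, 5874416 to 5878958) stood at 10.1, 8.21 and 8.21 CPM in the controls and 19.9, 23.9 and 21.6 CPM in the mutants. For noah-2 (chromosome IV, 14091254 to 14096626) the levels were 5.90, 4.49 and 4.81 CPM in the controls and 11.5, 12.6 and 14.8 CPM in the mutants. Neither gene's groups overlapped, and the log2 fold changes were 1.30 (SE 0.14, edgeR adjusted p 0.000274) and 1.35 (SE 0.16, edgeR adjusted p 0.000668). sym-1, for a secreted leucine-rich repeat protein, had 2.92, 2.88 and 3.02 CPM in the controls and 7.38, 7.68 and 5.96 CPM in the mutants, a change of 1.26 (SE 0.17, edgeR adjusted p 0.00199). let-653, for a mucin-like zona pellucida protein that lines epithelial tubes, rose from 0.802, 0.997 and 0.283 to 2.43, 3.50 and 2.90 CPM (a change of 1.9, SE 0.30, edgeR adjusted p 0.00660). In let-653 control C was the lowest library, and without it the change was 1.67. fbn-1, noah-1, noah-2 and sym-1 passed in all 6 fits that left out 1 library, and let-653 in 5.

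The other 5 tested members of the list did not pass. lpr-3, for a lipocalin-related protein, had a log2 fold change of 1.09 (adjusted p 0.0846), which became a call without control C (adjusted p 0.0423). egg-6, at 37.1 to 45.2 CPM, changed by 0.15, let-4 by -0.21, dex-1 by -0.30 and dyf-7 by -0.77. egg-6 and let-4 encode leucine-rich repeat proteins, while dex-1 and dyf-7 are best known from the anchoring of sensory dendrites.

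Several further genes of the epidermal surface, most of them picked out after their values were seen, rose as well. The cadherin gene cdh-7 stood at 0.378, 0.806 and 0.660 CPM in the controls and 3.80, 4.18 and 4.43 CPM in the mutants, a change of 2.72 (SE 0.26, edgeR adjusted p 0.000106). cdh-10 rose by 1.56 (SE 0.25), and the other 9 of the 11 tested genes with cadherin repeats did not pass. dpy-6, for a mucin-like protein, had 1.56, 2.23 and 1.79 CPM in the controls and 5.88, 5.96 and 6.01 CPM in the mutants. The mutants were closely grouped, and the change was 1.66 (SE 0.18, edgeR adjusted p 0.000427). cdh-7, cdh-10 and dpy-6 passed in each of the 6 leave-one-out fits. Among 6 tested lpr genes lpr-6 rose by 1.31 (SE 0.28, edgeR adjusted p 0.0326), but it passed in only 1 of those fits. Of the collagens, dpy-2 and dpy-9, which shape the furrows of the cuticle, rose by 1.09 (SE 0.23) and 1.24 (SE 0.23). They passed in 2 and 3 of the 6 leave-one-out fits.

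A pair of genes of the structures that join epidermis, muscle and cuticle were modestly higher. mua-3, for a transmembrane attachment protein, had 32.1, 29.8 and 26.8 CPM in the controls and 43.3, 43.6 and 44.3 CPM in the mutants. That is an increase of 0.56 on the log2 scale (SE 0.12, edgeR adjusted p 0.0353), and 5 of the 6 leave-one-out fits lost the call, all but the one without control C. mua-6, for an intermediate filament protein, rose by 0.68 (SE 0.14, edgeR adjusted p 0.0253) and passed in 2 of those 6 fits. The other 7 tested attachment genes did not pass. Of 20 tested prolyl isomerases, enzymes of protein folding, the cyclophilin cyn-6 (1.04, SE 0.17) and the FK506-binding protein fkb-5 (0.97, SE 0.18) rose. gly-8, of the family that starts mucin-type glycans, rose by 0.91 (SE 0.14), and among 34 tested genes of glycan synthesis and the surface coat it was 1 of 2 calls. gly-8 passed in 6 of 6 leave-one-out fits, cyn-6 in 4 and fkb-5 in 3.

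**Figure D2:**
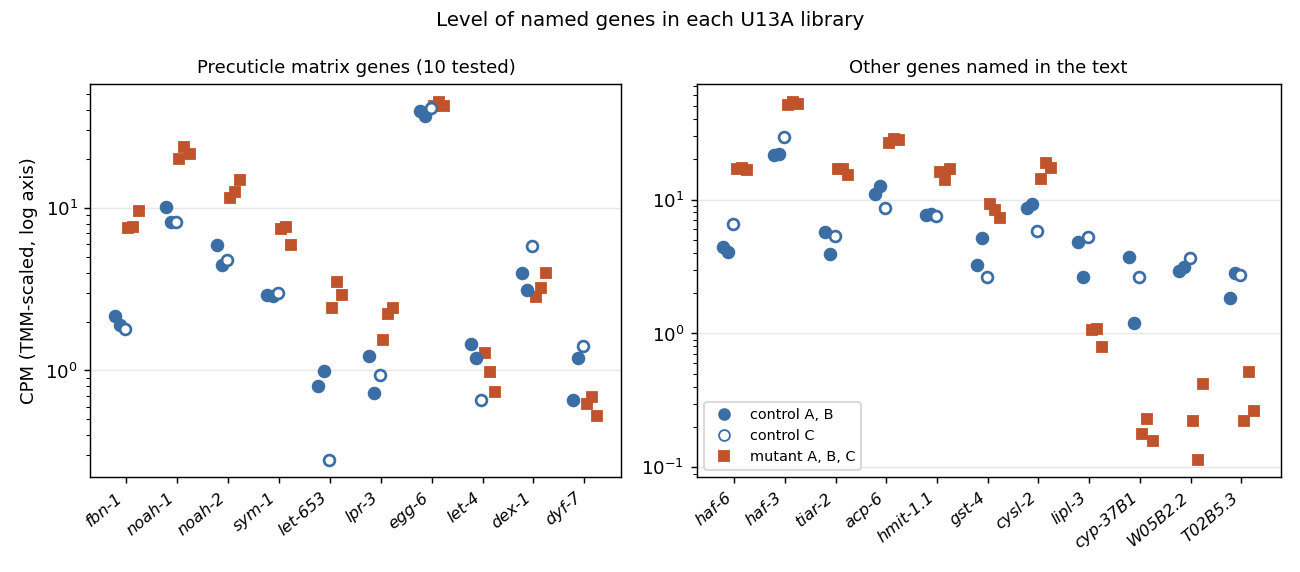
Level in each U13A library, in CPM on a log axis, of the 10 tested precuticle genes (left) and of 11 other genes named in the text (right). Circles are control libraries, with control C open, and squares are mutant libraries A, B and C; the 3 mutants lie above all controls for fbn-1, noah-1, noah-2, sym-1 and let-653, and below all controls for lipl-3, cyp-37B1, W05B2.2 and T02B5.3.

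Hedgehog-related and patched-related genes, many of which act in the epidermis during moulting, changed in both directions. Of 49 tested, 2 rose and 2 fell, the median being -0.18, and without control C 4 of 52 rose and 6 fell. Only 1 of them was called without control A, without mutant A or without mutant B. ptr-10, a patched-related gene, stood at 0.708, 0.575 and 0.283 CPM in the controls and 2.16, 3.21 and 2.16 CPM in the mutants (2.13, SE 0.30, edgeR adjusted p 0.00378), and it was the member that passed in all 6 fits. grd-13, of the ground-like hedgehog-related family, rose by 1.6 (SE 0.35, edgeR adjusted p 0.0369). It passed in only 1 of the 6 leave-one-out fits, and not in DESeq2 (adjusted p 0.117). The patched-related genes ptr-3 and ptr-19 fell by 1.25 (SE 0.24, edgeR adjusted p 0.0175) and 2.15 (SE 0.41, edgeR adjusted p 0.0186) on the log2 scale. Neither passed without control A, mutant A or mutant B, and ptr-19 was also lost without control B.

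The genes adt-1, suro-1, bus-4 and rol-1 fell. adt-1, for a metalloprotease of the ADAMTS class, fell from 7.31, 6.67 and 6.61 CPM to 2.87, 3.04 and 4.59 CPM, by 0.98 on the log2 scale (SE 0.19, edgeR adjusted p 0.0183). suro-1, for a carboxypeptidase-like secreted protein, fell by 0.87 (SE 0.18, edgeR adjusted p 0.0253), and bus-4, for a glycosyltransferase of the surface coat, by 1.48 (SE 0.33, edgeR adjusted p 0.0439), the other call of the glycan list. The collagen list did not hold rol-1, but as it was drawn up by symbol this does not show that rol-1 is no collagen. Named for its roller mutants, rol-1 was at 112 to 134 CPM in the controls and 36 to 71.8 CPM in the mutants. It fell by 1.21 (SE 0.22, edgeR adjusted p 0.0183), and without control C its adjusted p was 0.250. Of 54 tested genes of the abu and pqn families, which are rich in glutamine and asparagine and include components of the pharyngeal cuticle, 2 fell and 0 rose (5 of 56 fell without control C). These were abu-14, by 0.91 (SE 0.19), and pqn-63, by 1.61 (SE 0.30). Without control A, control B, mutant A or mutant B neither was called.

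Some lists of cuticle and matrix genes held no call. None of 12 cuticlin, 14 moulting factor or 15 basement membrane genes passed in edgeR, with or without control C, nor in DESeq2. With 6 libraries 2, 3 and 3 of them had an unadjusted p under 0.05, where 12.6% of all genes did. For lists this small, 0 calls are near the 1.55% called over all genes. Of 17 astacin proteases 0 passed in edgeR or DESeq2 with 6 libraries but 8 had an unadjusted p under 0.05, against 12.6% of all genes, and 1 rose and 2 fell without control C. Of 15 collagen-processing enzymes 0 passed in either tool (3 at an unadjusted p under 0.05), and 1 rose without control C.

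Half-molecule ABC transporters were among the higher genes outside the epidermal matrix. haf-6 stood at 4.43, 4.07 and 6.51 CPM in the controls and at 16.8, 17.1 and 16.7 CPM in the mutants, a change of 1.80 (SE 0.16, edgeR adjusted p 7.00e-05). haf-3 had 21.4, 21.8 and 29.1 CPM in the controls and 51.2, 53.9 and 51.7 CPM in the mutants (1.13, SE 0.14, edgeR adjusted p 0.00113). For both genes control C was the control nearest to the mutants, and both passed in all 6 leave-one-out fits. In the same list of 48 tested transporters the P-glycoprotein genes pgp-5 and pgp-6 fell by 0.90 (SE 0.18, edgeR adjusted p 0.0241) and 0.69 (SE 0.16, edgeR adjusted p 0.0468). Both lie on chromosome X, and as members of 1 family they may share reads. The pgp-5 call was lost without control A or any 1 of the mutants, and pgp-6 passed in 1 of 6 fits.

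tiar-2, for a RNA-binding protein of the TIA-1/TIAR family, stood at 5.71, 3.91 and 5.38 CPM in the controls and 16.9, 16.9 and 15.3 CPM in the mutants (1.73, SE 0.16, edgeR adjusted p 7.00e-05). Every mutant level was more than double every control level. Of 15 tested acid phosphatase genes 2 rose and 0 fell (also 2 without control C). acp-6 went from 11, 12.5 and 8.68 to 26.3, 28.1 and 27.9 CPM (1.33, SE 0.14, edgeR adjusted p 0.000274), and pho-11 rose by 0.71 (SE 0.13, edgeR adjusted p 0.0151). acp-6 passed in all 6 leave-one-out fits, and pho-11 was lost when any 1 mutant was left out. Genes with only a sequence name moved with them: Y48E1B.8 rose by 1.96 (SE 0.15, edgeR adjusted p 6.10e-05), F08A8.2 by 1.36 (SE 0.20), F42A9.6 by 1.26 (SE 0.15), C45B2.2 by 1.23 (SE 0.22), W03F11.1 by 1.22 (SE 0.18) and Y65B4BL.1 by 1.17 (SE 0.21). Of these and tiar-2, the calls for tiar-2, Y48E1B.8, F08A8.2 and F42A9.6 passed in all 6 leave-one-out fits, and the other 3 did not. Such names made up 74 of the 187 called genes, and no function is given for them here.

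Of 5 genes tested that protect cells from water loss, a list drawn up after the values were seen, 3 rose and 0 fell. hmit-1.1 and hmit-1.2 encode proton-coupled myo-inositol transporters and lie side by side on chromosome V between 18516789 and 18529156. hmit-1.1 stood at 7.64, 7.79 and 7.55 CPM in the controls and 16.0, 13.9 and 16.9 CPM in the mutants, about double in each (1.03, SE 0.13, edgeR adjusted p 0.00124). hmit-1.2 rose by 0.85 (SE 0.17, edgeR adjusted p 0.0241), as did gpdh-1, the osmotically induced glycerol-3-phosphate dehydrogenase of glycerol synthesis, by 0.84 (SE 0.18, edgeR adjusted p 0.0326). gpdh-2 (0.20) and hmit-1.3 (-0.55) did not pass. The same 3 of 5 genes were called without control C. hmit-1.1 passed in 6 of 6 leave-one-out fits, whereas hmit-1.2 and gpdh-1 passed only in the one without control C.

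Enzymes of glutathione and sulfur metabolism also included higher genes. Of 25 tested glutathione S-transferase genes 23 had a positive log2 fold change, with a median of 0.41, and for 12 every mutant lay above every control, against 9.8% of all genes. Of the 25, 2 passed, and without control C the median was 0.28 and 2 passed. gst-4, a widely used reporter of oxidative stress, stood at 3.26, 5.14 and 2.64 CPM in the controls and 9.23, 8.31 and 7.22 CPM in the mutants (1.11, SE 0.21, edgeR adjusted p 0.0183). gst-24 rose by 1.08 (SE 0.19, edgeR adjusted p 0.0146). Both calls were lost without control A, mutant A or mutant B. The summed level of the list was 108, 118 and 88.3 CPM in the controls and 148, 137 and 135 CPM in the mutants, with control C lowest. Among 11 tested genes of cysteine and sulfide metabolism 2 rose. cysl-2, for a cysteine synthase-like enzyme, had 8.59, 9.21 and 5.85 CPM in the controls and 14.1, 18.6 and 17.2 CPM in the mutants (1.05, SE 0.17, edgeR adjusted p 0.00760). cbl-1, for cystathionine beta-lyase, rose by 1.04 (SE 0.16, edgeR adjusted p 0.00664). They passed in 5 and 4 of the 6 leave-one-out fits. The thioredoxin trx-3 fell by 1.15 (SE 0.21, edgeR adjusted p 0.0171), the single call among 23 tested redox enzymes. It passed in 3 of the 6 leave-one-out fits.

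Some lipid and detoxification genes were called, in both directions. lipl-3, for a lysosomal lipase that is induced by fasting, stood at 4.81, 2.65 and 5.28 CPM in the controls and 1.06, 1.09 and 0.791 CPM in the mutants. Even the lowest control, B, was more than double the highest mutant, and the log2 fold change was -2.06 (SE 0.29, edgeR adjusted p 0.00394). Its relative lipl-6 rose by 2.09 (SE 0.39, edgeR adjusted p 0.0171) at a low level, 0.283 to 0.377 CPM in the controls and 1.00 to 2.12 CPM in the mutants. acs-1, for an acyl-CoA synthetase, rose by 0.90 (SE 0.17, edgeR adjusted p 0.0191). These were the 3 calls among 63 tested lipid genes, where 1.55% of all genes were called. Without control C 5 of 64 rose and 1 fell, where 2.81% of all genes were called. lipl-3 alone of the 3 passed in all 6 leave-one-out fits.

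sodh-1, for an alcohol and sorbitol dehydrogenase, had 33.5, 20.1 and 20.0 CPM in the controls and 10.2, 9.23 and 11 CPM in the mutants. It fell by 1.28 (SE 0.19, edgeR adjusted p 0.00760), a call that was lost without mutant A or mutant B. cyp-37B1, for a cytochrome P450, had 3.73, 1.19 and 2.64 CPM in the controls and 0.177, 0.229 and 0.158 CPM in the mutants, a change of -3.68 (SE 0.54, edgeR adjusted p 0.00674). The groups were far apart, yet this call too was lost without mutant A or mutant B. It was the single call among 30 tested cytochrome P450 genes. W05B2.2, with no function given here, fell from 2.92, 3.15 and 3.68 CPM to 0.221, 0.115 and 0.422 CPM (-3.62, SE 0.33, edgeR adjusted p 7.00e-05). T02B5.3 fell by 2.90 (SE 0.34, edgeR adjusted p 0.000751), and both passed in each of the 6 leave-one-out fits.

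Among genes with few counts, srw-85, of a chemoreceptor family, had 3, 2 and 1 counts in controls A, B and C and 38, 31 and 26 in mutants A, B and C. No other gene had 10 or more counts in all libraries of one group together with 3 or fewer in all of the other, and the ratio of pooled rates was 15.5. It was also the single call among 27 tested chemoreceptor genes (edgeR adjusted p 0.000210). The gene dct-8 had 3, 7 and 5 counts in the controls and rose by 2.85 (SE 0.39), and nhx-6, for a sodium/proton exchanger, had 5, 2 and 6 and rose by 2.69 (SE 0.44). D1086.3, with 16, 28 and 13 control counts, rose by 2.40 (SE 0.21). srw-85, dct-8 and D1086.3 passed in all 6 leave-one-out fits, and nhx-6 in 4.

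Further single calls touched signalling, RNA processing and proteolysis. pmk-2, for a p38 MAP kinase, fell by 1.40 (SE 0.24, edgeR adjusted p 0.0121), hoe-1, for the tRNA-processing enzyme RNase Z, by 0.80 (SE 0.12, edgeR adjusted p 0.00634), and ccch-1, for a zinc finger protein of the CCCH type, by 0.85 (SE 0.13, edgeR adjusted p 0.00611). tts-1, a long noncoding RNA, fell from 30.5, 23.4 and 35.9 CPM to 16.4, 17.5 and 17.7 CPM (-0.79, SE 0.15, edgeR adjusted p 0.0183). osm-3, for the motor that builds sensory cilia, fell by 1.09 (SE 0.24, edgeR adjusted p 0.0437), with none of the other 11 tested cilium genes called. lgc-21, of the ligand-gated channel family, fell by 1.22 (SE 0.18, edgeR adjusted p 0.00608), the 1 call among 42 such genes. Of these genes hoe-1 passed in 5 of 6 leave-one-out fits, pmk-2, ccch-1 and lgc-21 in 4, and tts-1 and osm-3 in 2.

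Immune and digestive genes gave isolated calls. The lysozyme lys-4 fell by 0.58 (SE 0.13, edgeR adjusted p 0.0453) and the saposin-like spp-23 rose by 0.84 (SE 0.18, edgeR adjusted p 0.0335), among 24 tested lysozymes and saposins (4 higher and 1 lower of 25 without control C). spp-23 was highest among the controls in control C, and its call was lost in every leave-one-out fit except that without control C. The lys-4 call was lost in the same fits. The aspartyl proteases asp-14 (0.78, SE 0.18) and asp-17 (-1.02, SE 0.18) moved in opposite directions, as the calls among 20 tested cathepsin and aspartyl proteases. dod-24, known to respond to insulin signalling and infection, rose by 1.09 (SE 0.18, edgeR adjusted p 0.0100). Of the 6 leave-one-out fits asp-14 passed in 2, asp-17 in 4 and dod-24 in 3. clec-230 was the 1 call among 80 tested C-type lectins and galectins, with a fall of 1.33 (SE 0.30), and fbxa-24 the 1 among 128 F-box, MATH and BTB genes, with a fall of 1.98 (SE 0.41). Each was lost without control A or any 1 mutant, and neither list's share exceeded the 1.55% called over all genes. Of 32 epidermal antimicrobial peptide genes 0 passed in edgeR or DESeq2 with 6 libraries (9 at an unadjusted p under 0.05), and without control C 4 rose.

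Of the 52 functional lists, 34 held no called gene, and 23 of these held none without control C either. The 23 lists are grouped here because they held no call. They covered 821 different tested genes, of which 70 (8.53%) had an unadjusted p under 0.05 in edgeR, against 12.6% of all genes, and 0 passed in DESeq2. Their medians ran from -0.40 to 0.39, and from -0.26 to 0.28 without control C. They included 41 muscle, 19 neuronal, 12 intestinal, 10 vulval and uterine and 41 germline genes. Their medians were 0.06, 0.02, -0.05, -0.13 and 0.11, against -0.01 over all genes. Without control C they were 0.03, 0.05, -0.02, -0.26 and 0.07, against 0.00, the vulval and uterine median being the lowest of the 23. The 23 lists also included 119 nuclear hormone receptors, 43 cell cycle genes, 32 histone genes, 32 proteasome genes and 51 heat shock and chaperone genes. Summed levels of the muscle list were 5046 to 5866 CPM in the controls and 5552 to 6045 CPM in the mutants. For the germline list they were 1565 to 1699 and 1722 to 1829 CPM.

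Some lists showed small shifts across many members, of a size that moved with control C. Among 78 tested cytosolic ribosomal protein genes 76 had a positive log2 fold change, with a median of 0.32, yet 0 passed in edgeR or DESeq2 (16 at an unadjusted p under 0.05). Without control C the median was 0.15 and again 0 passed (14 at an unadjusted p under 0.05), and without control B 4 passed. Their summed level was 8997 CPM in control C, 12630 and 12930 CPM in controls A and B, and 13900 to 14740 CPM in the mutants, so control C stood lowest. All 12 mitochondrially encoded genes had a negative log2 fold change with 6 libraries, with a median of -0.40, and without control C the median was 0.23. None passed in edgeR or DESeq2, and 0 had an unadjusted p under 0.05 with 6 libraries, against 5 without control C. Of the glycolysis and gluconeogenesis genes 20 of 21 had a positive log2 fold change, against 48.6% of all genes, and for 12 every mutant lay above every control, against 9.8%. Their median was 0.26, and 0.19 without control C. Their summed level was 1385, 1232 and 1175 CPM in the controls and 1336, 1415 and 1347 CPM in the mutants, so the groups overlapped. None passed in edgeR or DESeq2 with 6 libraries, 8 had an unadjusted p under 0.05, and 1 fell without control C. Altogether 8 of the 52 lists changed the sign of their median without control C.

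Yolk and sperm genes also shifted with control C. The 6 vitellogenin genes had a median of 0.49 with 0 called in edgeR, 1 in DESeq2 and 3 at an unadjusted p under 0.05, and without control C the median was 0.29 and vit-1 passed (adjusted p 0.0124). Without control B 3 of them passed. Their summed level was 1473, 1806 and 1094 CPM in the controls and 2027, 1878 and 1704 CPM in the mutants, so the groups overlapped. Of 77 sperm genes 0 passed in edgeR, 1 in DESeq2 and 24 had an unadjusted p under 0.05, against 12.6% of all genes, with a median of 0.23. Without control C 4 of 80 rose and the median was 0.12. Control C again held the lowest summed level, 635 CPM, against 880 to 1062 CPM in the other libraries. The part of that library's composition in these shifts was not tested.

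**Figure D3:**
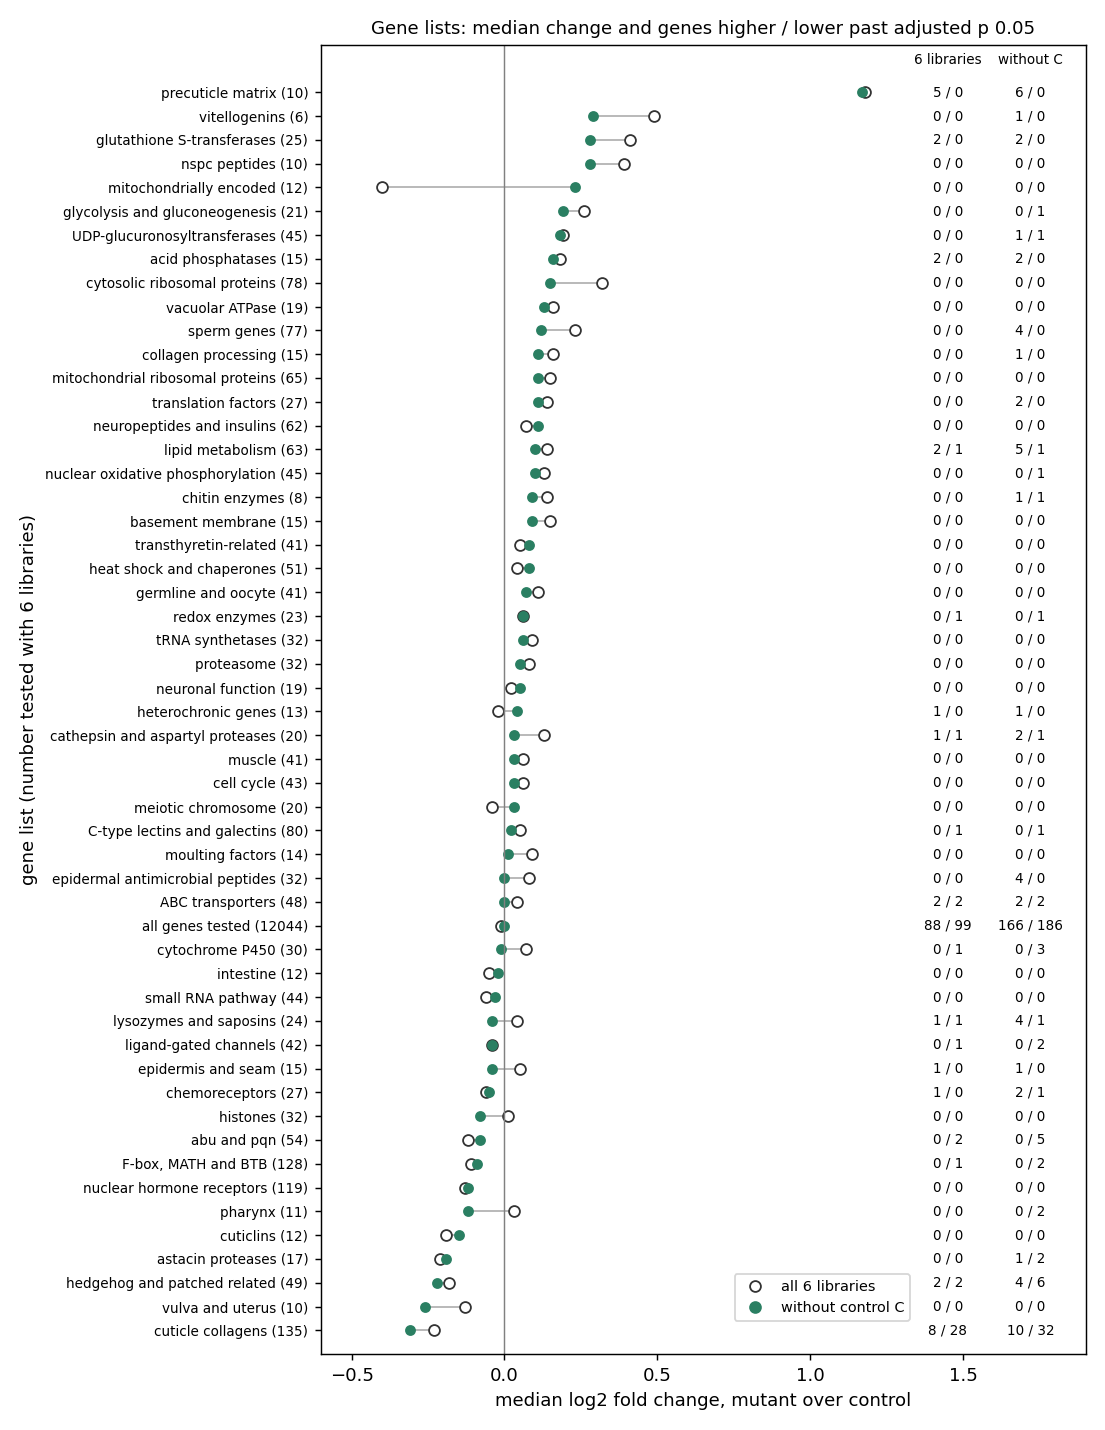
Median log2 fold change, mutant over control, of the 52 gene lists and of all genes tested, with all 6 libraries (open) and without control C (filled). The 2 columns at the right give the genes higher and lower past an adjusted p of 0.05 in each fit; precuticle genes stand at 1.18 and 1.17, while the mitochondrially encoded list moves from -0.40 to 0.23.

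Called genes came from every chromosome. The share called was 1.54% on I, 1.29% on II, 0.916% on III, 1.83% on IV, 1.97% on V and 1.85% on X, against 1.55% over all genes. By gene type, 83 protein-coding genes were higher and 92 lower of 11015 tested. Among 181 called genes with a position there were 9 pairs that neighboured each other, 8 of them changed in the same direction. Besides hmit-1.1 and hmit-1.2 these included T06E4.9, T06E4.10 and pqn-63 on chromosome V, all lower, whereas cysl-2 rose beside K10H10.4, which fell. Exons of 48 called genes overlapped another gene, among them fbn-1, sym-1, haf-6, haf-3, gst-4, cysl-2, lipl-3 and cyp-37B1. It is not stated whether counting used strand, so such counts are uncertain. gst-4 overlaps dhs-12 and lipl-3 overlaps srw-107 on the same strand, where stranded counting would not separate the genes either.

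The changes were set against those of the U18A mutant in 1 fit to all 12 libraries. Of 14155 genes tested for the difference, 277 passed (1.96%), 230 (1.62%) because the U13A change was the higher and 47 (0.332%) because it was the lower. Of the 187 called genes 186 could be tested, and for 90 the difference passed, 67 of the higher genes and 23 of the lower. Called genes were selected on their U13A change, which enters the difference, so they pass more readily. All 12 of the higher genes with the largest changes differed from U18A, against 3 of the 12 lower ones. Both sets were likewise chosen for their U13A change, outside the collagen list and at a mean of at least 5 CPM. The 3 lower genes that passed were sodh-1, F21C10.10 and pgp-5. For lgc-21, rol-1, adt-1 and abu-14 the difference did not pass and was between -0.35 and 0.17. It did not pass either for R12E2.15 (-0.04), F10D11.6 (0.08), T06E4.10 (-0.52), Y71F9AL.4 (-0.62) and Y54G2A.11 (-0.83). A difference that did not pass does not show that the change was shared with U18A.

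Precuticle genes differed between the mutants. Of 11 tested in this fit, 7 had a U13A change above the U18A change, 8 were lower in the U18A mutant and 0 were higher there, and the U18A median was -1.41. In the same fit 698 genes (4.93%) were called for U18A, 105 higher (0.742%) and 593 lower (4.19%). For noah-1 and noah-2 the difference was 3.01 (SE 0.28) and 3.09 (SE 0.25) on the log2 scale, with edgeR adjusted p of 4.37e-05 and 1.01e-06. For acp-6, haf-6 and tiar-2, outside the matrix genes, it was 1.38 (SE 0.18), 2.04 (SE 0.24) and 1.96 (SE 0.21). Among the other lists, the difference passed for 23 of 142 collagens, 5 of 14 moulting factors, 5 of 7 lpr genes, 4 of 12 genes with cadherin repeats, 7 of 57 hedgehog-related and patched-related genes, 3 of 22 prolyl isomerases, 2 of 12 genes of cysteine and sulfide metabolism, 1 of 5 osmotic genes and 0 of 31 glutathione S-transferases. The mutants differ in the lin-41 change, the control strain and the table they were counted in as well as in the let-7 position, and these cannot be told apart.

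**Figure D4:**
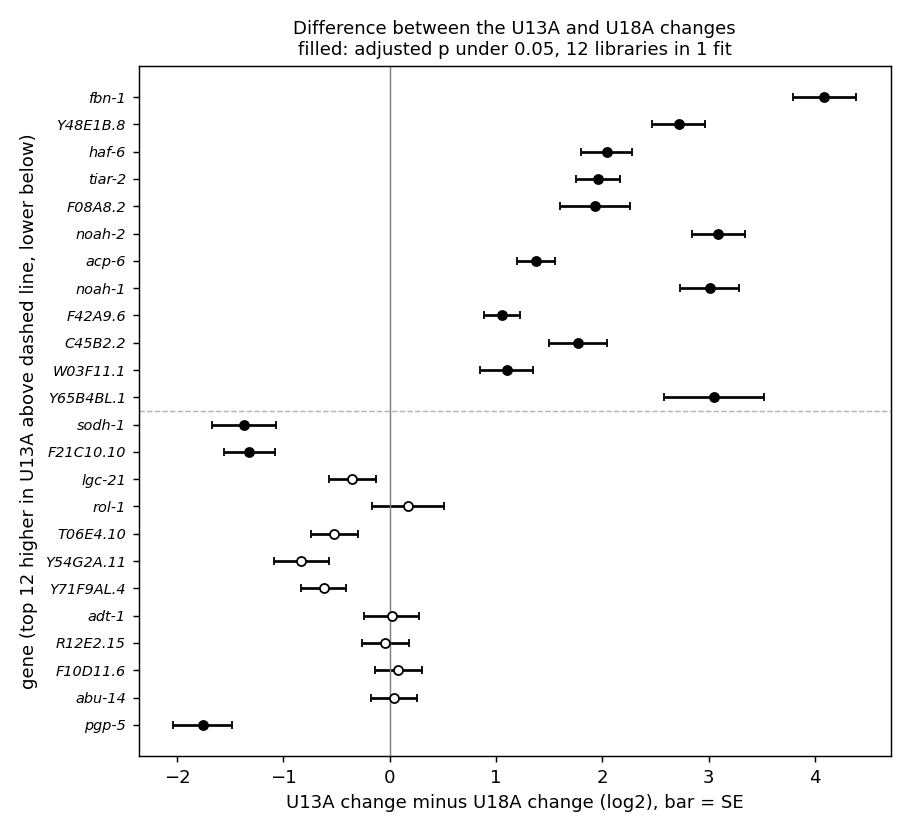
U13A change minus U18A change on the log2 scale, with bars of 1 SE. Shown are the 12 highest (above the dashed line) and 12 lowest of the called genes outside the collagen list with a mean of at least 5 CPM. They were chosen for their U13A change, which enters the difference. Filled points have an adjusted p under 0.05 in the fit to all 12 libraries; all 12 higher genes are filled, and of the lower genes sodh-1, F21C10.10 and pgp-5.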

How the data were processed

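RNA-seq of whole C. elegans at mid L4 was compared between 3 U13A mutant and 3 control libraries. The authors deposited unnormalized read counts by gene, in 1 table for these strains and another for the U18A strains: all values are whole and library totals differ. Per the labels, total RNA was freed of ribosomal RNA and the NEBNext Ultra II kit was used for the libraries. Per the submitters' processing notes the tools included cutadapt 1.9, Bowtie2 2.3.4.3 and featureCounts of Subread 1.6.2, with roles not given. The genome build, annotation, strand setting and treatment of multimapping reads are not given in the sources used here. Of 46711 entries 45992 matched WBcel235 (Ensembl release 115, with RefSeq names), which supplied coordinates, and 719 did not.

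Counts were tested with edgeR 4.0.16 (robust glmQLFit, glmQLFTest, 2-sided) in R 4.3.3, with TMM scaling, filterByExpr (minimum count 10, minimum total 15) and Benjamini-Hochberg adjustment over all genes tested, at 0.05. The SE was taken as |log2 fold change| over the root of the F statistic. The biological coefficient of variation was 14.4%. The difference from U18A was a contrast in 1 fit to all 12 libraries. Adjusted p-values in the text come from edgeR unless another tool is named.

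Named genes were let-7 and lin-41, and the 12 highest and 12 lowest changes outside the collagen list. The latter were taken among called genes averaging 5 CPM or more with groups that do not overlap. Up to 3 called genes per list by p were also named. So were genes with 10 or more counts in all libraries of one group and 3 or fewer in all of the other. Further named genes, and the cadherin, lipocalin, osmotic, sulfur, cilium, attachment, prolyl isomerase, glycan and O-acyltransferase lists, were chosen after their values were seen. The members and lists were all chosen with earlier results of these data known, so counts and medians describe the lists and are no test of them. Among the lists of the last kind not described further, 1 of 21 O-acyltransferases rose and 1 fell.

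On simulated counts with known changes the U13A fit recovered 69.4% of changes of 1 and 98.0% of changes of 2 on the log2 scale among 11819 genes, with 14 false calls of 180. Without control C it recovered 67.0% and 95.0% among 11986 genes, with 16 false of 178, and the fit of the difference 49.0% and 89.0% among 13465, with 5 false of 143. In both U13A fits false calls thus exceeded the threshold's share. Simulated U13A libraries shared 1 pooled rate per gene, so the unlike composition of control C was not simulated. Changed genes were drawn only from those averaging at least 10 counts. The figures therefore need not hold for the real libraries. Alternatives were RLE scaling, DESeq2 1.42.0, no count filter, removal of the 10 most abundant entries, all 12 libraries in 1 fit, the replicate letter as a block, and leaving out each library. Each column matched 1 sample. Figures used matplotlib 3.10.9 and pandas 2.3.3 in Python 3.11.15.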

Additional observations from a re-analysis of the deposited data

Results flagged for a closer look

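A test of the difference itself, in 1 edgeR fit to all 12 libraries, set apart the U13A and U18A changes of 15 genes among the 12 highest and 12 lowest of the U13A comparison. The U13A change minus the U18A change, on the log2 scale, was 4.09 for fbn-1, 3.09 for noah-2, 3.05 for Y65B4BL.1, 3.01 for noah-1 and 2.72 for Y48E1B.8. It was 2.04 for haf-6, 1.96 for tiar-2, 1.93 for F08A8.2, 1.77 for C45B2.2, 1.38 for acp-6, 1.10 for W03F11.1 and 1.06 for F42A9.6. Among the lower genes it was -1.37 for sodh-1, -1.32 for F21C10.10 and -1.76 for pgp-5. The genes were chosen for their U13A change, which enters the difference. Groups of 3 libraries were not searched for single outlying values.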

How the results depend on the processing

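The count of 187 called genes was 188 with the 10 most abundant entries removed, 187 with RLE scaling and 204 with DESeq2. It was 431 (217 higher, 214 lower) with all 12 libraries in 1 fit and 543 (236 higher, 307 lower) without the count filter. Across fits that left out 1 library it ran from 37 to 352, with 27 to 166 higher and 9 to 186 lower. For the difference from U18A, 473 genes passed without the filter (363 above, 110 below), and leaving out 1 library gave 176 to 342, with 143 to 263 above and 28 to 79 below; the fits other than those without U13A control C were added after the data were seen. The cause of these moves was not tested. Whether the letters pair the libraries is not known. Deviations of log2 CPM from the group means had correlations of 0, -0.03 and 0.09 between same-lettered controls and mutants. Between unlike letters they ran from -0.16 to 0.20. Deviations within a group of 3 libraries sum to 0, so these values cannot show that pairing is absent. With the letter as a replicate block 396 genes passed (176 higher, 220 lower) and 310 for the difference. Of the 47 genes named by rule, the sign turned for let-7 alone, whose log2 fold change ran from -1.24 to 1.07 across fits that left out 1 library, the latter without control C. For the called genes among the 47 the groups did not overlap, so their sign could hardly turn. Calls were most often lost without mutant B (31 genes), mutant A (30) or control A (23). Every fit that left out 1 library, and not only these, had 2 libraries in a group. Control C had the fewest counts outside the noncoding entries (4260691).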
